A study of Mus musculus with 34 samples.

Results

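The Hedgehog pathway genes described here are Shh, Ptch1, Smo, Hhip, Gli1, Gli2 and Gli3, 7 of the 20145 genes named on the arrays. They were chosen by name, and every probe whose RefSeq accession belongs to one of them was taken, which gave 9 of the 55681 probes that are not controls. Smo and Hhip had 2 probes each and the others had 1. Where a gene had several probes, the leading one was that well above background in the most fractions, and the other is named as such.

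Gene expression along the brain was measured by slicing whole frozen brains and hybridising the RNA of each fraction to 1 single-colour array. Each of the 3 brains came from a male C57BL/6J mouse aged 3 days and was cut along 1 axis only, giving 15 coronal fractions of mouse 1, 8 horizontal fractions of mouse 2 and 11 sagittal fractions of mouse 3. A fraction held 100 slices of 5 µm, a width of 500 µm, and sagittal fractions 1 and 11 pooled 2 cut fractions each. No fraction was measured again in another mouse or on another array, so every p-value below compares positions within 1 mouse and the spread is that between neighbouring fractions. The animals carried no allele and received no agent that the labels name, and no group served as a control.

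Hedgehog signalling starts when the secreted ligand Sonic hedgehog, encoded by Shh, binds the receptor Patched1 (Ptch1) and releases the transmembrane protein Smoothened (Smo) from its block. Smoothened then acts on the Gli transcription factors, of which Gli1 is an activator and itself a target, Gli2 is mainly an activator and Gli3 is mainly a repressor, and Ptch1 and Hhip, a membrane protein that binds the ligand, are targets that damp the signal. In the cerebellum around birth, Purkinje cells secrete Sonic hedgehog and granule cell precursors divide in response to it, while in the ventral forebrain and midbrain the ligand patterns the neural tube earlier in development.

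Promoter sequence is shown for Gli2 and Gli3, which were higher in coronal fractions 1 to 3 along with Gli1, and for the targets Ptch1 and Hhip, so that the letters bound by Gli proteins can be looked for. The RefSeq promoter table (build GRCm38.p6) held 5 of the 7 members, all but Shh and Gli1, with 1 start a gene, and the 250 bases before that start are given here, 5′ to 3′ along the gene, with every GGGTGG or CCACCC, the core of the Gli motif on either strand, in capitals.
Gli2 (chr1:119053620-119053869, minus strand): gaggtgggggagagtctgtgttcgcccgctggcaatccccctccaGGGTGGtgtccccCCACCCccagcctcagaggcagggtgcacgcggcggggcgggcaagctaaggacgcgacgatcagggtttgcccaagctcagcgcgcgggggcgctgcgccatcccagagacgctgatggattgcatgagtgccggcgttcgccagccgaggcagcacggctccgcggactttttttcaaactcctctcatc
Gli3 (chr13:15463473-15463722, plus strand): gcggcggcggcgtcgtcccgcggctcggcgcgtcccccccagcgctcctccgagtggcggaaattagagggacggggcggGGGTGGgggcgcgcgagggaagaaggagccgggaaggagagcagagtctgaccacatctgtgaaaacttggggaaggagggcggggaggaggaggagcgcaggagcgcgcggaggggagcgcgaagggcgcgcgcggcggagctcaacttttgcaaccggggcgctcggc
Ptch1 (chr13:63565736-63565985, minus strand): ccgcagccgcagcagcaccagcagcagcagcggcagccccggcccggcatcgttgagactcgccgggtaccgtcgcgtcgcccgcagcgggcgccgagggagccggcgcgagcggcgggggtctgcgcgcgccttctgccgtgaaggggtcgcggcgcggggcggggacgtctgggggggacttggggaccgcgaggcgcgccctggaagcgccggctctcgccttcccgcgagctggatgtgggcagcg
Hhip (chr8:80058009-80058258, minus strand): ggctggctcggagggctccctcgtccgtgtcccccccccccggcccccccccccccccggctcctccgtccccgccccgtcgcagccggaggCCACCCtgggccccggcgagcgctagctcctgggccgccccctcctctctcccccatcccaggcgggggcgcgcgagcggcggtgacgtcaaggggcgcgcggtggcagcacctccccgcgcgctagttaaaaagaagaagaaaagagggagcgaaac
The core was found 2 times in the Gli2 window and 1 time each in those of Gli3, Hhip and Smo, and it was not in the Ptch1 window. It was in 28.1% of the 32851 windows of the table. The whole motif of 9 letters, TGGGTGGTC or its reverse complement GACCACCCA, includes the core, was in 0.225% of the windows and in none of the 5 members' windows. The windows of Ptch1 and Gli2 lie within the annotated span of the gene and that of Hhip overlaps it, so these are the starts of some transcripts, and other starts were not searched. These are matches of letters in a short window and say nothing of binding.

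Levels are given as log2 signal, the log2 of a probe's processed intensity less the log2 75th percentile of its array, so that 0 is the array's 75th percentile; one probe's level was not set against another's. Between 29598 and 37091 of 59305 spots were well above background on an array and no spot was saturated. Among probes printed several times and well above background in every spot, the median SD between spots ran from 0.058 to 0.111 log2 units per array. The arrays lay on 5 slides. The labels do not say which region a fraction holds or from which end fractions were counted, so marker genes were used to describe the fractions. In coronal fractions, the summed signal of a list's markers, on the linear scale relative to the array's 75th percentile, was highest in fraction 1 for the granule cell lineage, Purkinje cells and proliferation, in 2 for hindbrain, in 3 for choroid plexus and cartilage, in 6 for midbrain, in 7 for pituitary, in 8 for thalamus and hypothalamus, in 13 for cerebral cortex, in 14 for striatum and subpallium, and in 15 for olfactory bulb, meninges and astrocytes with radial glia. In horizontal fractions, cortex markers were highest in 2, thalamus in 3, Purkinje, proliferation and astrocyte markers in 4, granule lineage and choroid plexus in 5, hindbrain, midbrain and cartilage in 6, striatum and olfactory bulb in 7, and hypothalamus, pituitary and meninges in 8. In sagittal fractions, cortex markers were highest in 1, proliferation in 4, granule lineage, thalamus and olfactory bulb in 5, astrocyte, cartilage and pituitary markers in 6, Purkinje and striatum markers in 7, midbrain and hypothalamus in 8, hindbrain in 9, choroid plexus in 10 and meninges in 11. The comparisons below are by fraction number, and coronal 1 to 3, coronal 10 to 15 and horizontal 6 to 8 are described as the fractions with cerebellar, telencephalic and hypothalamic (ventral) markers. A sum follows its brightest genes, and 3 of 5 astrocyte and radial glia markers peaked in coronal fraction 2, not 15. The hypothalamic marker Otp was not well above background in any fraction. Fewer cells of a type and less RNA per cell cannot be told apart in such fractions.

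The ligand Shh was close to background in many fractions. Its probe, printed as 10 spots on each array, was well above background in 22 of 34 fractions, and the SD among its spots on an array ran from 0.12 to 1.24. Over the 34 fractions the lowest log2 signal was -6.26, in coronal fraction 15, the median was -4.44 and the highest was -3.41, in horizontal fraction 7. In the coronal series Shh was well above background in fractions 2 to 10 and in none of fractions 11 to 15, and fraction 1 was also below that mark. The mark asked that most spots of a probe be well above background. In coronal fraction 1 this held for 5 of the 10 spots, as in sagittal fraction 9, so both fell just short. In the horizontal series it was well above background from fraction 3 on, with -4.31 in fraction 6, -3.41 in 7 and -3.69 in 8. In the sagittal series it was highest in the middle, at -4.15 in fraction 6, and lowest at both ends, with -5.77 in fraction 1 and -5.67 in fraction 11.

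The receptor Ptch1 was well above background in all 34 fractions, with its lowest log2 signal, -2.61, in sagittal fraction 1 and its highest, -0.18, in coronal fraction 1. Along the coronal series it ran from -0.18 in fraction 1 to -1.79 in fraction 9, and fractions 10 to 15 lay between -2.01 and -1.46. In the horizontal series the highest value was -1.05 in fraction 4, where 4 of 5 Purkinje markers also peaked, and fractions 1 and 2 were lowest, at -2.49 and -2.53. Hhip was also well above background in all 34 fractions with its leading probe, between -2.34 in coronal fraction 15 and 0.54 in coronal fraction 2. Along the horizontal series Hhip ran the other way from Ptch1, with 0.32, 0.45 and 0.01 in fractions 1 to 3 and -0.71, -0.63 and -1.07 in fractions 6 to 8. The other Hhip probe was well above background in 19 of 34 fractions and followed the leading one (Pearson r = 0.80 and Spearman rho = 0.76 over 34 fractions). The transducer Smo varied least in the horizontal and sagittal series, where the leading probe stayed between 2.82 and 3.30, and most in the coronal series, from 2.74 in fraction 8 to 4.08 in fraction 1 and 3.70 in fraction 15. The other Smo probe also had its highest coronal values in fractions 15 and 1, at 1.65 and 0.92. It read 0.15 in both fractions 2 and 3, where the leading probe read 3.78 and 3.62. The 2 Smo probes had r = 0.27 and rho = 0.06 over the coronal series, and r = 0.33 and rho = 0.06 over the 34 fractions.

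Gli1, the transcription factor whose level is often read as pathway output, had its 3 highest values in coronal fractions 1, 2 and 3, at 2.36, 2.07 and 1.57. The next highest was 1.01, in horizontal fraction 4, and the lowest was -0.99, in horizontal fraction 2. Gli3 followed a like course over a smaller range in the coronal and horizontal series. It ran from -0.41 in coronal fraction 8 to 0.61 in coronal fraction 1, with 0.42 in horizontal fraction 4. In the sagittal series Gli1 and Gli3 were less alike (r = 0.31, rho = 0.30). Gli2 was well above background in 33 of 34 fractions and ranged from -4.37 in coronal fraction 7 to 0.18 in horizontal fraction 1, a value far from its neighbour, which was -3.76 in fraction 2.

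**Figure D1:**
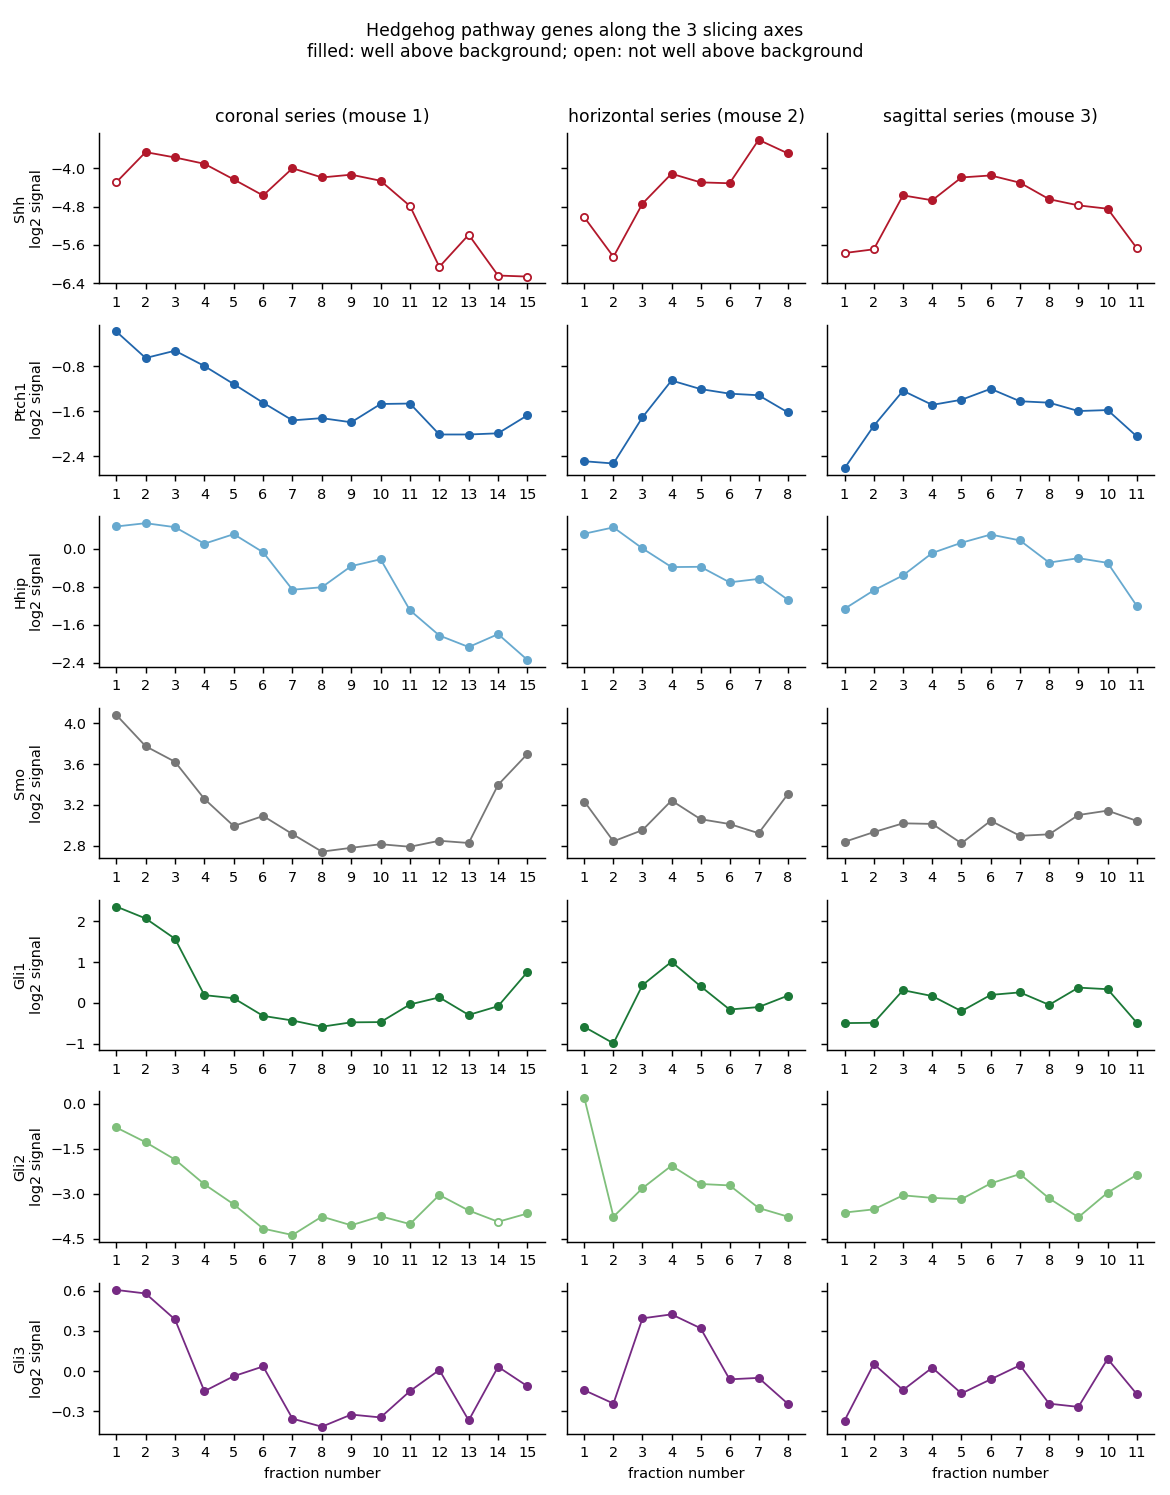
Log2 signal of the leading probe of each member (rows; y axis, log2 signal relative to the array's 75th percentile) by fraction number (x axis) in the coronal, horizontal and sagittal series. Filled points are well above background and open points are not. Gli1 was highest in coronal fractions 1 to 3 (1.57 to 2.36), while Shh was dimmest in coronal 15 (-6.26) and Gli2 stood apart in horizontal fraction 1 (0.18).

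The fractions with cerebellar and hindbrain markers were compared with their neighbours, coronal 1 to 3 against 4 to 6, all on slide 2. All 3 Gli genes were higher in fractions 1 to 3, and the ligand was not detectably so. By limma with Benjamini-Hochberg adjustment over 34186 probes, 3 of 7 members were higher (adjusted p under 0.05) and 0 lower, where 2.42% of all probes were higher and 1.94% lower (4.36% in either direction). That is 829 higher and 662 lower, and 1073 and 256 with the array median in place of the 75th percentile. The median log2 difference of the 7 members was 0.67, against -0.01 over all probes.

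Gli1 read 2.36, 2.07 and 1.57 in fractions 1 to 3 and 0.19, 0.11 and -0.32 in fractions 4 to 6. All 3 values of fractions 1 to 3 lay above all 3 others, and the log2 difference was 2.01 (SE 0.276, 4.02-fold, adjusted p = 0.00656). Gli2 read -0.79, -1.28 and -1.86 against -2.68, -3.35 and -4.16, each lower than the one before, without overlap between the sides. Its log2 difference was 2.09 (SE 0.371, 4.25-fold, adjusted p = 0.0135). Gli3 read 0.61, 0.58 and 0.38 against -0.15, -0.04 and 0.03, also without overlap, for a log2 difference of 0.57 (SE 0.127, 1.49-fold, adjusted p = 0.0302).

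The ligand did not separate the sides in this way. Shh read -4.29, -3.66 and -3.78 in fractions 1 to 3, where fraction 1 was not well above background, and -3.91, -4.23 and -4.57 in fractions 4 to 6. Those values overlapped, and the log2 difference was 0.33 (95% interval -0.52 to 1.17, adjusted p = 0.658). Ptch1 read -0.18, -0.65 and -0.52 against -0.79, -1.11 and -1.45, with no overlap but with an adjusted p of 0.0719 for a difference of 0.67 (SE 0.197). Smo read 4.08, 3.78 and 3.62 against 3.26, 2.99 and 3.09 with its leading probe (difference 0.71, SE 0.190, adjusted p = 0.0539), and its other probe gave 0.04 (SE 0.284). Hhip read 0.47, 0.54 and 0.46 against 0.11, 0.31 and -0.07 (difference 0.37, SE 0.314, adjusted p = 0.508), and its other probe gave -0.13 (SE 0.498). In all, 6 of 7 members did not overlap between the sides, where 33.3% of all probes did not.

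Markers of dividing cells, Purkinje cells and hindbrain moved with these values, among others. All 4 proliferation markers, among them Mki67, a protein of dividing nuclei, were higher in fractions 1 to 3, and the summed signal of the list was 18.97 to 34.5 there against 8.503 to 9.02 in fractions 4 to 6. Of 5 Purkinje markers 4 were higher (summed signal 25.1 to 77.7 against 2.87 to 6.81), of 4 hindbrain markers 3 were higher (17.8 to 46.4 against 1.15 to 8.39), and of 4 tested granule lineage markers 1 was higher (30.0 to 34.6 against 10.6 to 19.7). The summed cartilage markers were also higher without overlap (4.15 to 5.20 against 1.26 to 1.89). Gene by gene, Col2a1 was 1.82, Acan -0.23 and Comp 0.01. The sums of astrocytes and radial glia (209.1 to 236.4 against 293.8 to 302.3) and of striatum and subpallium (0.301 to 0.463 against 0.466 to 2.86) were lower. The astrocyte sum followed its brightest gene, Fabp7 (-0.88). Gfap, Aldh1l1, Slc1a3 and Aqp4 went the other way, at 1.29, 0.61, 0.49 and 0.13, and the list's median log2 difference was 0.485. By the test, Gfap was higher and Emx1, Dlx1 and Dlx2 were lower. The part of all these markers in the Gli differences was not tested. Gli1 passed the test with any 1 of the 6 fractions left out (adjusted p between 0.00326 and 0.0475). Gli2 did not pass without fraction 1, 2, 5 or 6 (adjusted p = 0.0579, 0.0591, 0.0576 and 0.0632), nor Gli3 without fraction 1, 2, 4, 5 or 6 (0.0990, 0.108, 0.0844, 0.103 and 0.0880) or with no detection filter (0.0778), and over the 6 omissions the log2 differences stayed between 1.71 and 2.44 for Gli2 and between 0.52 and 0.64 for Gli3. Smo passed without fraction 3 (adjusted p = 0.0407) and with the array median (0.0400), normexp (0.0418) or limma-trend (0.0312), as did Ptch1 with the array median (0.0488) or normexp (0.0448).

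**Figure D2:**
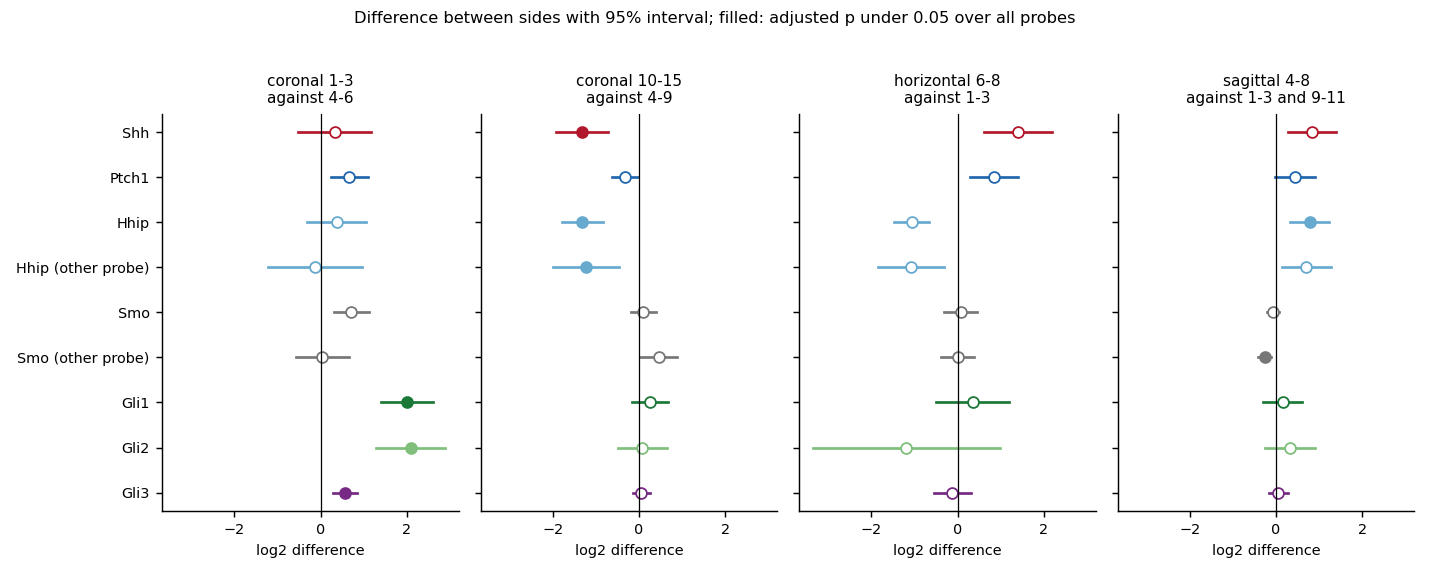
Log2 difference (x axis) of each member probe (rows) between the 2 sides of the 4 comparisons (panels), with the 95% interval as a line; filled points had an adjusted p under 0.05 over all 34186 probes. The Gli genes stood to the right in the cerebellar comparison (0.57 to 2.09), and Shh and Hhip stood to the left in coronal 10 to 15 (-1.33 and -1.31).

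The fractions with telencephalic markers, coronal 10 to 15, were compared with coronal 4 to 9. Here the ligand and Hhip were lower and the Gli genes did not pass the test. Of the 7 members 2 were lower (3 of the 9 probes) and 0 higher, where 14.4% of all probes were lower and 22.7% higher (37.1% in either direction, 7753 higher and 4928 lower, and 5934 and 5860 with quantile normalization), and the sides overlapped for all 7, where they did not overlap for 16.9% of all probes. The median log2 difference of the members was 0.05 and that of all probes 0.09.

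Shh ran from -6.26 to -4.26 with a median of -5.72 in fractions 10 to 15, where only fraction 10 was well above background, and from -4.57 to -3.91 with a median of -4.16 in fractions 4 to 9, where all 6 were. Fraction 10 lay inside the range of the other side and the other 5 lay below it. The log2 difference was -1.33 (SE 0.274, adjusted p = 0.00324), and no fold is given because 5 of 6 values of the lower side were not well above background. Hhip ran from -2.34 to -0.22 (median -1.81) against -0.86 to 0.31 (median -0.22), with fraction 10 again inside the other range, for a difference of -1.31 (SE 0.222, 2.48-fold lower, adjusted p = 0.00116). Its other probe gave -1.23 (SE 0.352, adjusted p = 0.0170), with 1 of 6 fractions well above background against 5 of 6.

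The remaining members kept within narrower bounds. Ptch1 ran from -2.01 to -1.46 against -1.79 to -0.79 (difference -0.33, SE 0.139, adjusted p = 0.0797). Gli1 ran from -0.47 to 0.76 against -0.58 to 0.19 (difference 0.25, 95% interval -0.17 to 0.68, adjusted p = 0.332). The differences of Gli2, Gli3 and the leading Smo probe were 0.07, 0.05 and 0.10, with adjusted p values of 0.85, 0.68 and 0.589, and the other Smo probe gave 0.45 (adjusted p = 0.0965).

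Slide moved with this comparison, since fractions 4 to 8 were on slide 2 and fractions 9 to 11 and 13 to 15 on slide 3, with 12 on slide 5. With slide as a block in the fit, 5 probes were higher and 27 lower over the whole array instead of 7753 and 4928, and no member passed. Shh was then -1.04 (adjusted p = 0.330), leading Hhip -1.53 (adjusted p = 0.283) and its other probe -1.89 (adjusted p = 0.334), while within slide 3, with fraction 9 alone on its side, they were -1.11, -1.05 and -1.34. Slide and position cannot be told apart for most of these fractions. With normexp background correction, Shh was 0.10 (adjusted p = 0.320) and the other Hhip probe 0.20 (adjusted p = 0.0736), both turned in direction, while leading Hhip was -0.86 (adjusted p = 0.000575); the median of all probes was then 0.22. Region markers moved as well. All 5 markers of striatum and subpallium, all 4 of olfactory bulb and 3 of 5 of cortex were higher in fractions 10 to 15, and 3 of 5 Purkinje markers, 3 of 4 tested granule lineage markers and 4 of 5 thalamus markers were lower (thalamus summed signal 3.58 to 7.73 against 20.6 to 27.8), and their part in the result was not tested. No call on Shh or Hhip was lost when any 1 of the 12 fractions was left out (adjusted p up to 0.00965, 0.00414 and 0.0426 for Shh and the Hhip probes). Ptch1 passed without fraction 6 (-0.41, adjusted p = 0.0374), as did the other Smo probe without fraction 14 (0.56, adjusted p = 0.0499).

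The fractions with hypothalamic markers, horizontal 6 to 8, were compared with horizontal 1 to 3. No member passed the test, where 0.617% of all probes did (0.386% higher and 0.231% lower). At an unadjusted p under 0.05 there were 3 of 7 members (4 of 9 probes), where 2648 of all 34186 probes were higher and 3126 lower at that threshold. The leading Hhip probe passed with limma with a trend on intensity (adjusted p = 0.0180), normexp (0.0185), the array median (0.0483) and quantile normalization (0.0497). The median log2 difference of the members was 0.07, against -0.06 over all probes.

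Shh read -4.31, -3.41 and -3.69 in fractions 6 to 8 and -5.03, -5.85 and -4.74 in fractions 1 to 3, of which only fraction 3 was well above background. All 3 values of the first side were higher, by 1.40 on the log2 scale (SE 0.333, adjusted p = 0.107). Ptch1 was also higher in each of fractions 6 to 8, at -1.28, -1.31 and -1.62 against -2.49, -2.53 and -1.70 (difference 0.84, SE 0.237, adjusted p = 0.158). Hhip went the opposite way without overlap (difference -1.06, SE 0.171, adjusted p = 0.0524), and its other probe gave -1.07 (SE 0.323, adjusted p = 0.172). These 3 of 7 members did not overlap between the sides, where 23.6% of all probes did not.

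Gli1 overlapped between the sides, with -0.16, -0.10 and 0.17 against -0.59, -0.99 and 0.44 (difference 0.35, SE 0.362, adjusted p = 0.666). Gli2 gave -1.19 (SE 0.924, adjusted p = 0.561) and -0.03 without fraction 1. Gli3 gave -0.12 (SE 0.183), and the Smo probes gave 0.07 and 0.01. The leading Hhip probe passed without fraction 3 (-1.19, adjusted p = 0.0477), as did Ptch1 (1.103, adjusted p = 0.0477). Within slide 1, which held fractions 1, 2 and 6 to 8, the differences were 1.64 for Shh, 1.103 for Ptch1 and -1.19 for Hhip, with adjusted p values of 0.116, 0.0687 and 0.0729. The summed hypothalamic markers were 6.15 to 52.0 in fractions 6 to 8 against 1.33 to 2.48, with 0 of 5 tested genes past the threshold, and those of proliferation overlapped, at 8.23 to 10.2 against 7.91 to 11.4. Without overlap, the summed markers of olfactory bulb (8.18 to 9.48 against 1.70 to 2.97, with Cdhr1 past the test) and of striatum and subpallium (11.6 to 14.4 against 4.43 to 5.61) were higher and those of cortex lower (38.2 to 42.9 against 58.7 to 70.6), and their part was not tested.

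The middle of the sagittal series, fractions 4 to 8, was compared with the outer fractions 1 to 3 and 9 to 11, taking fraction 6 as the midline, which the labels do not state. Hhip was higher in the middle, and the ligand did not pass the test. Of the 7 members 1 was higher and 0 lower by their leading probes, where 5.35% of all probes were higher and 6.07% lower (11.4% in either direction, 1830 higher and 2075 lower, and 1049 and 2843 with the array median), and the sides of all 7 overlapped, where 10.6% of probes did not. The median log2 difference of the members was 0.32, against -0.04 over all probes.

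Hhip read -0.09, 0.13, 0.30, 0.18 and -0.29 in fractions 4 to 8, and the outer fractions ran from -1.27 to -0.20 with a median of -0.72. Fraction 8 overlapped the outer range, and the log2 difference was 0.78 (SE 0.205, 1.72-fold, adjusted p = 0.0401). Shh read -4.67, -4.19, -4.15, -4.30 and -4.65 against -5.77 to -4.57 (median -5.26), where 2 of the 6 outer fractions were well above background, for a difference of 0.83 (SE 0.2502, adjusted p = 0.0591). Ptch1 read -1.48 to -1.20 against -2.61 to -1.23 (difference 0.43, SE 0.210, adjusted p = 0.195). The other Hhip probe gave 0.70 (SE 0.254, adjusted p = 0.0953).

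The remaining members differed little along this axis. Gli1 gave 0.15 (SE 0.202), Gli2 0.32 (SE 0.258), Gli3 0.05 (SE 0.0997) and the leading Smo probe -0.08 (SE 0.062). The other Smo probe was lower in the middle (-0.27, SE 0.072, adjusted p = 0.0428) with no overlap between the sides, so the 2 Smo probes disagreed on the call, which was lost without any 1 fraction other than fraction 9. As a slope on the distance from fraction 6, Shh, Hhip and Ptch1 all fell towards the outside, with adjusted p values of 0.000881, 0.000573 and 0.0112, in a fit that called 3409 probes higher towards the middle and 6257 lower of 34186. Outer fractions 10 and 11 were on slide 5 and fraction 1 on slide 3, and with slide as a block the differences were 0.56 for Shh and 0.50 for Hhip (adjusted p = 0.405 and 0.333). The call on Hhip was lost without any 1 of fractions 1, 2, 4 to 7, 10 and 11 (adjusted p 0.0549 to 0.0926). With normexp background correction Shh was -0.11 (adjusted p = 0.231). Shh passed without fraction 3 (1.02, adjusted p = 0.0132), as did Ptch1 (0.60, adjusted p = 0.0362). The cortex markers were lower in the middle for 4 of 5 genes and the meninges markers for 3 of 4. Higher were 4 of 4 tested hindbrain, 3 of 4 olfactory bulb, 3 of 5 tested hypothalamus, 2 of 3 tested midbrain and 2 of 5 thalamus markers, and their part in these differences was not tested.

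The ligand was set against its targets by taking Shh minus target log2 signal within each array and comparing that difference between sides, with a two-sided exact permutation test over arrays and Benjamini-Hochberg adjustment over 12 tests (4 comparisons of Gli1, Ptch1 and Hhip). None of the 12 passed after adjustment, while 4 had an unadjusted exact p under 0.05. All 4 came from comparisons in which most Shh values of 1 side were not well above background. Such differences were not taken over all probes. This count and any lack of overlap below therefore have no share of all probes to be judged against. The tests in coronal 1 to 3 and horizontal 6 to 8 could not pass whatever the values. They set 3 against 3 arrays, where the smallest exact p is 0.1. Values below are relative to the mean of the second side.

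Shh minus Gli1 was -2.42, -1.50 and -1.12 in coronal fractions 1, 2 and 3, while fractions 4 to 6 lay between -0.12 and 0.13. The sides did not overlap and differed by -1.68 (SE 0.395), with p = 0.1, the smallest that 3 against 3 arrays can give in this exact test. Shh minus Hhip was -0.05 (SE 0.248) and Shh minus Ptch1 was -0.34 (SE 0.335), both with overlap. In coronal 10 to 15 against 4 to 9, Shh minus Gli1 was -1.58 (SE 0.500, exact p = 0.0108, adjusted p = 0.0649) and Shh minus Ptch1 was -0.996 (SE 0.326, exact p = 0.0216, adjusted p = 0.0779). Without fraction 10 they were -1.92 and -1.18, each with an adjusted exact p of 0.0173, and 3 of the 12 passed. Fraction 10 was the only one of fractions 10 to 15 with Shh well above background, so that first side then held only values near background. Slide also moved with this comparison, and Shh minus Ptch1 changed sign with normexp. Shh minus Hhip was -0.02 there (SE 0.293, exact p = 0.955).

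In horizontal 6 to 8 against 1 to 3, Shh minus Hhip was 2.47 (SE 0.547) and Shh minus Gli1 1.05 (SE 0.328), each without overlap and with the smallest exact p of 0.1, and Shh minus Ptch1 was 0.57 (SE 0.389). In the sagittal middle Shh minus Gli1 was 0.68 (SE 0.153, exact p = 0.00433, the smallest possible, adjusted p = 0.0519) and Shh minus Ptch1 was 0.40 (SE 0.137, exact p = 0.0260, adjusted p = 0.0779). Shh minus Hhip was 0.05 (SE 0.118). Shh was well above background in only 2 of the 6 outer sagittal fractions and in 1 of the 3 horizontal fractions 1 to 3. With normexp the sagittal differences from Gli1, Ptch1 and Hhip changed sign, as did Shh minus Ptch1 in the horizontal comparison.

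**Figure D3:**
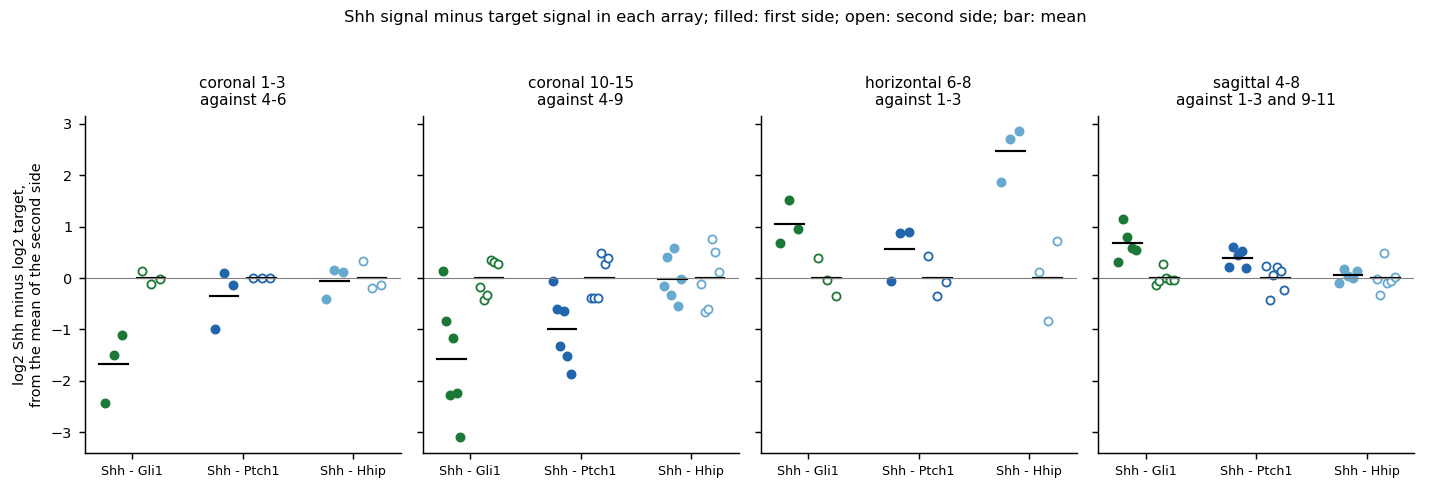
Log2 Shh minus log2 target signal in each array (points; y axis, relative to the mean of the second side) for Gli1, Ptch1 and Hhip in the 4 comparisons (panels). Filled points are the first side, open points the second and bars the means. The mean for Gli1 in coronal 1 to 3 was -1.68 and that for Hhip in horizontal 6 to 8 was 2.47, both without overlap between the sides.

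As a description over neighbouring fractions, which share a mouse, slides and overlapping tissue, the members fell into unlike pairs by axis. In the coronal series (15 fractions) Gli1 ran with Gli2 (r = 0.93, rho = 0.81), Gli3 (0.93, 0.76) and Ptch1 (0.81, 0.61), and Shh with Hhip (0.87, 0.75) and hardly with Gli1 (0.20, 0.05). The pairs were not separate there, since Ptch1 also ran with Hhip (0.81, 0.85) and Shh with Ptch1 (0.62, 0.525). Between Shh and Gli1 the values were higher in the sagittal (0.73, 0.40) and horizontal series (0.59, 0.50). In the sagittal series (11 fractions) Shh ran with Hhip (0.94, 0.86) and Ptch1 (0.89, 0.95). In the horizontal series (8 fractions) Shh ran with Ptch1 (0.78, 0.64) but opposite to Hhip (-0.89, -0.81), and Gli1 ran with Gli3 (0.82, 0.76). Outside the coronal series Gli1 ran little with Gli2, at -0.03 and 0.29 in the horizontal and 0.13 and 0.15 in the sagittal series. With Gli3 it was weaker in the sagittal series (0.31, 0.30). Over all 34 fractions Shh and Gli1 had r = 0.32 and rho = 0.27. Every value for Shh includes fractions near background. Its probe was well above background in 9 of 15 coronal, 6 of 8 horizontal and 7 of 11 sagittal fractions.

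**Figure D4:**
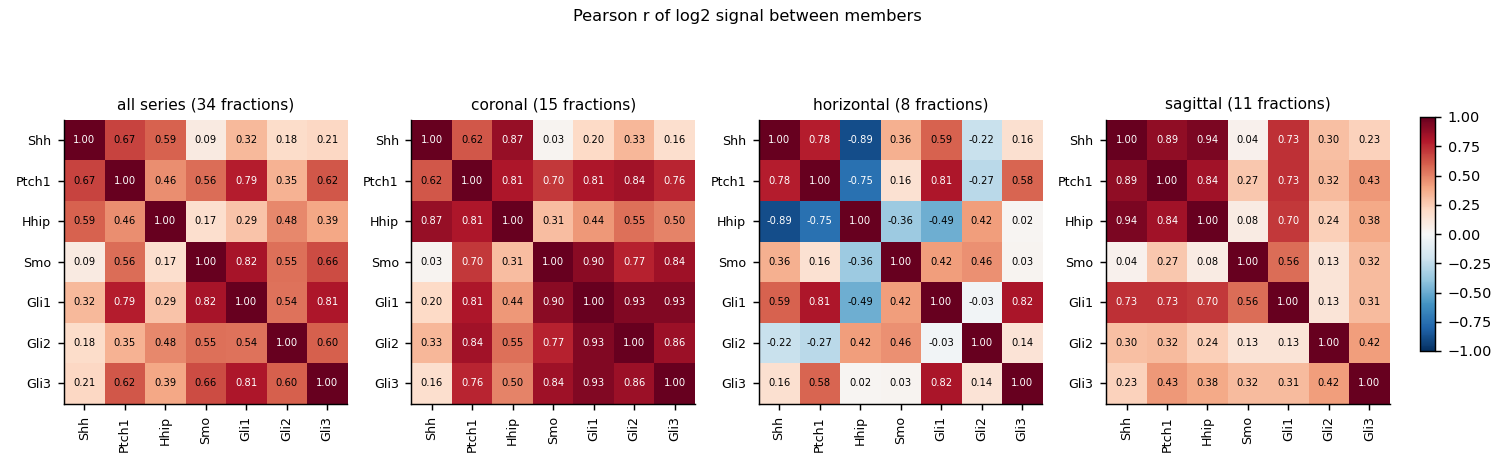
Pearson r of log2 signal between the leading probes of the 7 members, in the panels for all 34 fractions and for each of the coronal, horizontal and sagittal series; red is positive and blue negative. Shh and Hhip had r = 0.87 in the coronal and 0.94 in the sagittal series but -0.89 in the horizontal series.

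The genes whose course was most like each member were ranked by r over the 34 fractions among probes with a gene symbol detected in all series, with 5 named per member. Those nearest to Gli1 were Exo1 (r = 0.94, rho = 0.83), Fbxo5 (0.93, 0.87), Aspm (0.93, 0.87), Kntc1 (0.93, 0.85) and Tgif1 (0.93, 0.85). Those nearest to Gli3 were Mki67 (0.88, 0.80), Aspm (0.86, 0.72), Top2a (0.84, 0.68), Fbxo5 (0.83, 0.71) and Tfdp2 (0.83, 0.80). Aspm and Kntc1 act at the mitotic spindle, Fbxo5 restrains the anaphase-promoting complex, Top2a untangles replicated DNA, and Aspm and Fbxo5 stood in both lists.

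Gli2 had weaker neighbours, Tbc1d4 (0.76, 0.81), Arhgap11a (0.75, 0.54), Bard1 (0.73, 0.66), Nuf2 (0.72, 0.56) and Zfpm1 (0.71, 0.64), of which Arhgap11a and Zfpm1 had an r of -0.18 and -0.36 in the sagittal series. Those of Shh were Htr7 (0.92, 0.86), a serotonin receptor, Galr1 (0.90, 0.89), a galanin receptor, Zfp92 (0.90, 0.84), Resp18 (0.89, 0.83) and the imprinted gene Peg3 (0.89, 0.83). Those of Ptch1 were Ndst3 (0.89, 0.86), Meis1 (0.87, 0.86), Tbc1d31 (0.87, 0.77), Zfp521 (0.86, 0.89) and Chrdl2 (0.86, 0.86). Those of Hhip were Rnf152 (0.85, 0.81), Kcnn2 (0.85, 0.77), Mab21l1 (0.85, 0.87), Esrrb (0.84, 0.79) and Otx2 (0.84, 0.83), a homeobox gene of forebrain and midbrain. Those of Smo were Elavl1 (0.92, 0.79), Plscr1 (0.91, 0.83), Inpp5a (0.91, 0.77), Selenbp1 (0.90, 0.77) and Clic4 (0.90, 0.76), whose r was between 0.30 and 0.70 in the sagittal series.

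A wider list of 42 genes of the pathway, of which 41 were tested, placed the members among their partners. In coronal 1 to 3 against 4 to 6, 5 were higher and 1 lower, where 2.42% of all probes were higher and 1.94% lower, with a median log2 difference of 0.17 against -0.01 over all probes. The co-receptor Boc (1.21, SE 0.199, adjusted p = 0.0102) was higher, as was Scube2, which helps release the ligand (1.57, SE 0.293, adjusted p = 0.0160). So were the cell cycle targets Ccnd1 (1.04, SE 0.156, adjusted p = 0.00882) and Ccnd2 (1.21, SE 0.286, adjusted p = 0.0370), and Hsd11b2, which was not well above background in any of fractions 4 to 6 and in 7 of 34 fractions in all. By role, 1 of 7 genes of ligand processing, 1 of 4 receptors and co-receptors and 3 of 12 tested targets were higher. The related ligand Dhh was lower (-2.22, SE 0.536, adjusted p = 0.0398), and none of the 16 cytoplasmic regulators passed, with Sufu at 0.56 (adjusted p = 0.321).

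In coronal 10 to 15 against 4 to 9, 9 of 41 were higher and 5 lower, shares near the 22.7% and 14.4% of all probes, at a median of 0.10 against 0.09 over all probes. The higher ones were Hhat, Scube1, Cdon, Kif7, Stk36, Csnk1e, Evc, Ccnd2 and Sfrp1, from 0.31 to 1.41, and the lower ones were Lrp2 (-2.33, SE 0.440, adjusted p = 0.00201), Zfp521, Olig2, Btrc and Foxa2, a floor plate factor that was well above background in none of fractions 10 to 15 and 4 of fractions 4 to 9. In horizontal 6 to 8 against 1 to 3 none of the 41 passed by limma, where 0.617% of all probes did, and Dhh came nearest, at 1.73 (SE 0.322, adjusted p = 0.0693). In the sagittal middle, where 5.35% of all probes were higher and 6.07% lower, 1 was higher, Foxa2 (4.73, SE 0.488, adjusted p = 0.00832), with 5 of 5 middle and 1 of 6 outer fractions well above background, and 5 were lower, Scube1, Boc, Ccnd1, Foxf2 and Foxc2, from -1.04 to -0.38. Foxf1 was not tested.

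**Figure D5:**
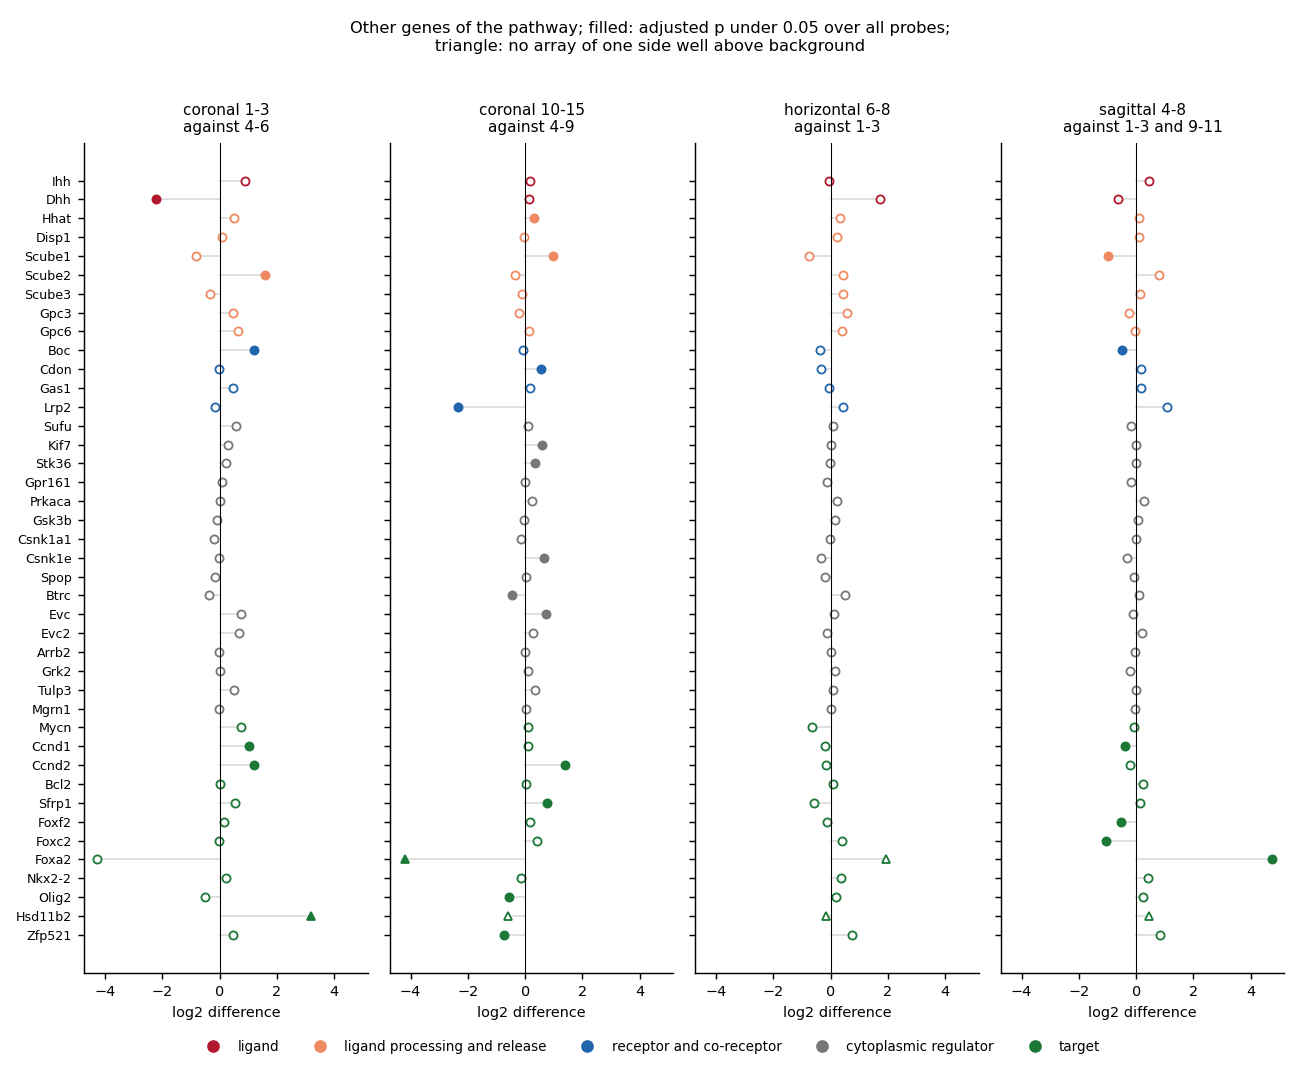
Log2 difference (x axis) of the 41 tested genes of the wider pathway list (rows), coloured by role, in the 4 comparisons (panels). Filled marks had an adjusted p under 0.05 over all probes, and triangles mark genes not well above background in any array of one side. In the cerebellar comparison 5 were higher and 1, Dhh, was lower.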

How the data were processed

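Each fraction's RNA was labelled with Cy3 and hybridised to an Agilent SurePrint G3 Mouse array, and the authors' scanner files, made with Feature Extraction 10.10.1.1, hold the deposited background-subtracted intensity of every spot. A second deposited file gives the authors' log2 values for 43199 probes, scaled to each array's 75th percentile. Of these values, 99.917% lay within 0.02 of the log2 intensities computed here once each array's median offset was removed. That offset differed from the log2 75th percentile used here by at most 0.0122. Here log2 intensity less the array's log2 75th percentile was used, with control spots left out. Spots flagged as outliers were dropped unless all spots of a probe were flagged. The remaining spots of a probe were averaged on the linear scale before the log2 was taken. The SD between spots and the background marks used all spots. The 34186 probes that each of the coronal, horizontal and sagittal series detected above background in some fraction were tested with limma 3.58.1 (R 4.3.3, data.table version 1.17.8), in a fit per series with blocks of fractions by number, Benjamini-Hochberg adjustment over all probes and a call at an adjusted p under 0.05. Values by array and exact permutation tests were computed with Python 3.11.15, numpy 2.4.6, pandas 2.3.3 and scipy 1.17.1. Genes were named through RefSeq accessions (GRCm38.p6).

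The members, the wider pathway list (ligands, ligand processing and release, receptors and co-receptors, cytoplasmic regulators and targets), the 15 marker lists and the tests were chosen with earlier results of these data known. The genes named were the members, pathway genes that passed or were extreme in their role, the markers, and for each member the 5 genes of highest Pearson r. On simulated data with 200 probes shifted by 2 log2 units among 34186, the fit recovered 162 in coronal 1 to 3, 184 in coronal 10 to 15, 149 in horizontal 6 to 8 and 189 in the sagittal middle, and with a shift of 1 it recovered 94, 156, 52 and 144. The simulated arrays held independent noise around each probe's series mean. They had no gradients, no likeness between neighbouring fractions and no slide effect, so recovery in the real fractions may differ. Alternatives were other array scalings, normexp background correction with an offset of 50 on the median spot and background intensities, the authors' values, no detection filter, limma with a trend, slide as a block or within a slide, and leaving out each fraction. 1 gene of the wider pathway list is not reported here and was left out of its counts. Other ages were not analysed here.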

Additional observations from a re-analysis of the deposited data

Results flagged for a closer look

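Gli2 in horizontal fraction 1 read 0.1826 on the log2 scale, and the next highest of the 8 horizontal fractions was -2.06. The gap was 0.569 of the whole range, above Dixon's 95% critical value for 8 samples. All 9 member probes were searched in each series, and chance flags about 1 in 20 such groups. The difference of Gli2 between horizontal 6 to 8 and 1 to 3 was -1.19 with that fraction and -0.03 without it.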

How the results depend on the processing

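The counts of probes past the threshold moved with the settings. In coronal 1 to 3, the count lower was 256 with the array median and 1096 with limma-trend, and without a detection filter 412 were higher and 165 lower. In coronal 10 to 15, 14701 were higher with normexp and 16422 without a filter, with slide as a block 5 were higher and 27 lower, and within slide 3 0 were higher and 1 lower. In horizontal 6 to 8, normexp gave 511 higher and 288 lower, limma-trend 547 and 319, no filter 0 and 0 (2602 and 3609 at an unadjusted p under 0.05 by limma), slide as a block 2 and 3, and slide 1 alone 28 and 31. In the sagittal middle, 1049 were higher with the array median, 11454 were lower with normexp, no filter gave 727 higher and 680 lower, slide as a block 5 and 7, slide 4 alone 13 and 9, and the slope on distance 3409 and 6257. Leaving out 1 fraction, the counts higher and lower ran from 48 to 1283 and 18 to 1268 in coronal 1 to 3, from 0 to 154 and 0 to 121 in horizontal 6 to 8, and from 486 to 2308 and 415 to 2514 in the sagittal middle.

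Some members changed sign, and the cause was not tested. With normexp, Shh was 0.10 in coronal 10 to 15 and -0.11 in the sagittal middle, the other Hhip probe 0.087 in coronal 1 to 3, 0.20 in coronal 10 to 15 and -0.074 in the sagittal middle, and Gli2 -0.047 there. In coronal 10 to 15, Ptch1 was 0.12 within slide 3, leading Smo -0.013 with quantile normalization, and Gli2 and Gli3 -0.082 and -0.041 with slide as a block. Gli3 in horizontal 6 to 8 was 0.0053 with slide as a block and 0.074 within slide 1. In the sagittal middle, Gli1 was -0.069 with slide as a block and within slide 4, and Gli3 was -0.037 with the array median. Leaving out 1 fraction, the other Smo probe ran from -0.21 to 0.17 and the other Hhip probe from -0.33 to 0.17 in coronal 1 to 3, Gli2 from -0.12 to 0.25 in coronal 10 to 15, leading Smo from -0.042 to 0.18, the other Smo probe from -0.15 to 0.12 and Gli3 from -0.24 to 0.074 in horizontal 6 to 8, and Gli3 from -0.000398 to 0.11 in the sagittal middle. None of these had passed the test except Shh and the other Hhip probe in coronal 10 to 15.

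Of the 12 differences of Shh minus a target, 3 passed with normexp and 4 with the authors' values, against 0. Some differences changed sign with normexp. In coronal 10 to 15 Shh minus Ptch1 was then 0.22 and minus Hhip 0.97, and in horizontal 6 to 8 minus Ptch1 was -0.19. In the sagittal middle minus Gli1 was -0.23, minus Ptch1 -0.30 and minus Hhip -0.73. With the authors' values, minus Gli1 and minus Ptch1 kept their sign, at -1.63 and -1.05 in coronal 10 to 15 and 0.71 and 0.43 in the sagittal middle. The counts that passed with normexp and with the authors' values cannot be taken as the same result. With the other Hhip probe, Shh minus Hhip in coronal 1 to 3 was 0.46. Leaving out 1 fraction, from 0 to 3 passed. In coronal 10 to 15 Shh minus Gli1 then ran from -1.92 to -1.28, minus Ptch1 from -1.18 to -0.82 and minus Hhip from -0.15 to 0.14. Shh minus Hhip ran from -0.15 to 0.13 in coronal 1 to 3 and from -0.017 to 0.14 in the sagittal middle. Of the 35 nearest genes, 22 stayed with quantile normalization, 22 with series means removed and 10 by Spearman rho.

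No paired analysis was possible because fraction numbers are positions and each series is a different mouse. With 1 mouse per axis and 1 array per fraction, spread between animals was not measured. Shh was well above background in 22 of 34 fractions.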
